A study of Mus musculus with 46 samples.

Results

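The genes described here are 10 that move, store or sense iron in mouse cells: Hamp, Tfrc, Tfr2, Trf, Slc40a1, Fth1, Ftl1, Slc39a14, Slc11a2 and Bmp6. They were given as a list of symbols, chosen with earlier results of these data known, and all 10 were found among the 55487 genes of each library. RNA had been sequenced in 46 libraries that fall into 11 groups and 3 experiments, in which genes needed for healthy mitochondria were deleted in mouse pancreatic islets or in liver. The title of the series names signalling from mitochondria to the identity and maturity of metabolic tissues as its subject.

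In the first experiment, islets carried the genotype Tfam control (5 female and 3 male libraries) or Tfam KO (4 female and 2 male). Tfam packages mitochondrial DNA and starts its transcription. In the second, islets were labelled Clec16a control or Clec16a KO, each on diets written as RFD (4 libraries each) or HFD (6 control, 5 KO) that the labels do not spell out. Clec16a takes part in the removal of damaged mitochondria. In the third, livers were labelled control (6 libraries), Mfn DKO (4) or Tfam KO (3), and the letters AAV in their descriptions stand in all 3 groups. Mfn1 and Mfn2 fuse mitochondria. The labels give no promoter or cell type for the deletions, no strain, no age, no count of mice behind a library and, outside the first experiment, no sex. Islets had been cultured overnight before RNA was taken, so the islet values describe cultured tissue, and livers had been flash frozen. Nothing states that libraries of a group came from separate mice, so p-values measure the spread between libraries, which may be technical.

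Iron enters cells bound to transferrin (Trf), a plasma protein made by hepatocytes, through the transferrin receptor (Tfrc), and unbound iron enters through Slc39a14 (ZIP14) or leaves endosomes through Slc11a2 (DMT1). It is stored in a shell of heavy and light ferritin chains (Fth1, Ftl1), and it leaves through ferroportin (Slc40a1), the only known cellular iron exporter of mammals. Hepcidin (Hamp), a peptide hormone of the liver, blocks ferroportin. Its transcription in hepatocytes follows Bmp6 from endothelial cells, the transferrin sensor Tfr2 and the interleukin-6 pathway.

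Several of these messages carry an iron-responsive element, a short hairpin that iron regulatory proteins (encoded by Aco1 and Ireb2) bind when iron is scarce. Bound near the start of the ferritin and ferroportin messages it holds back their translation, and bound in the tail of the Tfrc message it protects that message from decay. The GENCODE M21 transcripts (GRCm38) were searched on the sense strand for the loop CAGTGN, its last base not G, between 2 stems of 5 bases that pair with each other, G with T included, and with an unpaired C before the first stem. A match lay in an untranslated region of 4 of the 10 genes, of 2 of the 89 other iron genes listed that code for protein (Alas2, Bola3) and of 123 of 21877 protein-coding genes (0.562%). The matches are shown because the RNA level of Tfrc, but not that of the ferritins, is a known readout of this switch. The capitals mark the loop, and each stretch of 30 bases is given 5′ to 3′ in DNA letters. The first 3 lie in the 5′ untranslated part of exon 1, and the 4 of Tfrc in the 3′ untranslated part of exon 19.
Fth1, chr19:9982732-9982761, plus strand: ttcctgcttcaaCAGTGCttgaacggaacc
Ftl1, chr7:45459778-45459807, minus strand: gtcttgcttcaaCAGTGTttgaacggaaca
Slc40a1, chr1:45925464-45925493, minus strand: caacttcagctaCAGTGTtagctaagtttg
Tfrc, chr16:32631219-32631248, plus strand: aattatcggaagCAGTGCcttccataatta
Tfrc, chr16:32631598-32631627, plus strand: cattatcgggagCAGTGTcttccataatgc
Tfrc, chr16:32631663-32631692, plus strand: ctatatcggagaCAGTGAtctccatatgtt
Tfrc, chr16:32631710-32631739, plus strand: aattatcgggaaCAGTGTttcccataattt
A match is a description of letters, and no binding was measured. Stems with a mismatch or a further unpaired base were not searched, so a gene without a match may still carry an element.

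The Tfam islet libraries held 55223041 to 83342809 counts each, the liver libraries 41961114 to 56894510 and the Clec16a islet libraries, the shallowest, 16235173 to 55810879. CPM, the count relative to library size, are scaled below within an experiment by trimmed means of M-values (TMM). A gene is called where edgeR's quasi-likelihood test, adjusted over all genes tested, gives a p not above 0.05. Tfam fell to 16.02 to 18.95 CPM in the Tfam KO islets against 37.8 to 44.7 in their controls, and to 13.1 to 15.9 against 54.2 to 66.2 in the livers. Mfn1 and Mfn2 lay at 15.6 to 25.4 and 32.3 to 45.1 CPM in Mfn DKO livers against 67.8 to 88.3 and 113 to 191 in controls. Clec16a did not separate its groups (20.9 to 31.8 CPM in controls, 23.4 to 32.9 in KO), so those genotypes rest on the labels. 2 libraries stood apart in these genes: the one labelled Clec16a KO HFD replicate 4, whose Tfrc, Ftl1 and Bmp6 were nearest to the controls of all KO libraries, and Tfam KO liver replicate 2, with the lowest Alb of the 13 livers (17648 CPM, against 58854 to 104525 in controls).

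In islets the ferritin messages were the most abundant of the 10 and hepcidin was close to absent, whereas in liver transferrin and hepcidin led. The order is by deposited TPM, which divide the count by gene length. Over the 18 control islet libraries, medians were 648 TPM for Ftl1, 229.98 for Fth1, 27.2 for Tfrc, 14.8 for Slc40a1, 12.4 for Slc11a2, 5.86 for Slc39a14, 3.95 for Trf, 1.76 for Bmp6, 0.124 for Tfr2 and 0 for Hamp. Slc40a1 and Slc11a2, Slc39a14 and Trf, and Tfr2 and Hamp were neighbours whose means differed by less than their summed SDs. Tfrc and Slc40a1 overlapped in range, and every other pair of neighbours had separate ranges. Over the 6 control livers the medians were 9959 TPM for Trf, 1595 for Hamp, 1454 for Ftl1, 893 for Fth1, 218 for Tfr2, 55.0 for Slc39a14, 43.9 for Slc40a1, 17.2 for Tfrc, 11.9 for Slc11a2 and 2.56 for Bmp6. Here Hamp and Ftl1, Slc39a14 and Slc40a1, and Tfrc and Slc11a2 overlapped and did not differ beyond their spread. Tissue and experiment are the same split, so a difference between tissues cannot be told apart from one between experiments, and it was not tested.

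**Figure D1:**
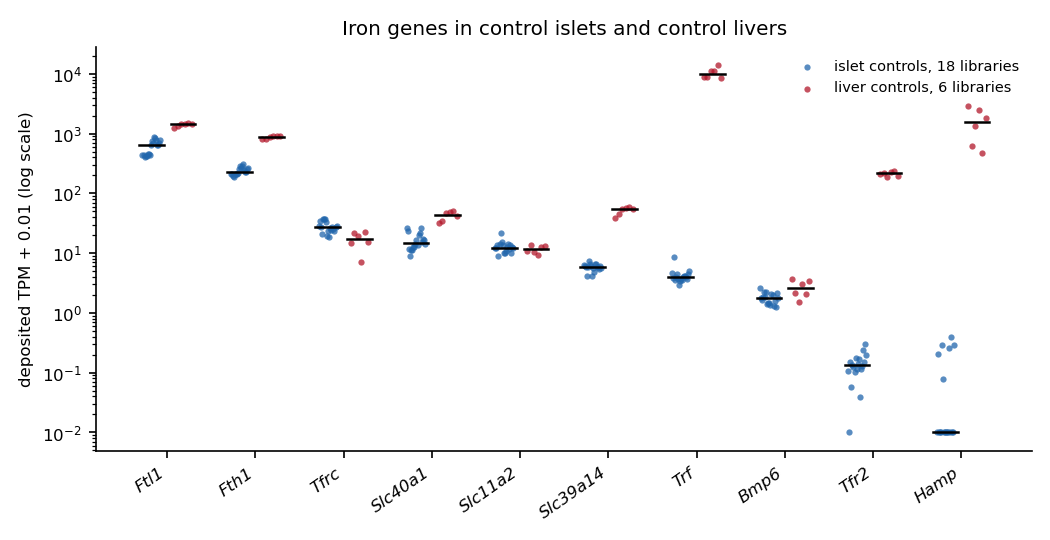
Deposited TPM plus 0.01 on a log axis for each of the 10 genes in 18 control islet libraries (blue) and 6 control livers (red), each point 1 library and each line the median; a value of 0 is drawn at 0.01. Trf, Tfr2 and Hamp are lower in all 18 islet libraries than in all 6 livers, and Slc11a2 has overlapping ranges in both tissues.

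Hamp (chromosome 7, 30942368 to 30944032) had 0 counts in 26 of the 33 islet libraries and at most 4 in the others, and it did not pass the filter on low counts there. A count of 0 allows up to 3 counts, which is 0.0360 to 0.185 CPM over the islet libraries. No islet comparison therefore tests it, and 9 of the 10 genes were tested in every islet comparison.

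In the livers Hamp varied widely within each group. The control livers held 587, 118, 257, 459, 84.7 and 371 CPM, the Mfn DKO livers 348, 302, 759 and 17.4, and the Tfam KO livers 489.8, 48.3 and 931. The highest control was 6.93 times the lowest, and all 3 groups overlapped. The fitted log2 fold change was 0.19 in Mfn DKO (95% interval -1.47 to 1.85, adjusted p = 0.91) and 0.65 in Tfam KO (-1.14 to 2.44, adjusted p = 0.63), intervals that leave room for a change of more than 2-fold in both directions. The sign changed without some of the libraries, with fitted values from -0.49 to 0.57 in Mfn DKO and from -0.33 to 1.18 in Tfam KO over all alternatives.

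Hamp has a close copy, Hamp2, on the same strand of chromosome 7 (30922372 to 30924681), and reads of such copies can be assigned to either. Hamp2 lay at 29.5, 4.75, 179, 121, 99.9 and 31.1 CPM in the control livers, at 13.7, 107, 29.7 and 8.72 in Mfn DKO and at 4.54, 0.675 and 115 in Tfam KO. Its fitted log2 fold change was -0.96 in Mfn DKO and -0.95 in Tfam KO, and neither was called. In the controls and in Mfn DKO the library with the most Hamp2 was not the one with the most Hamp, while in Tfam KO both were highest in replicate 3. The TPM ratio of Hamp to Hamp2 ran from 1.21 to 35.3 in the controls, from 2.83 to 36.3 in Mfn DKO and from 11.5 to 153.5 in Tfam KO. Summing the counts of both genes left the numbers of called genes in the liver comparisons as they were.

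**Figure D2:**
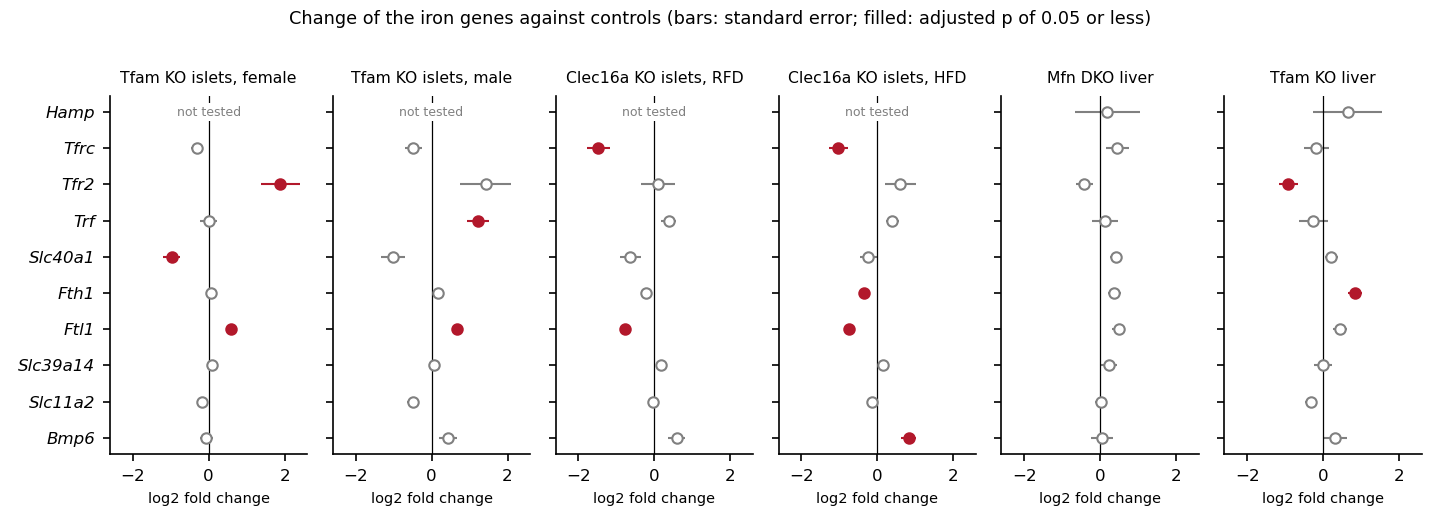
Log2 fold change against controls (x axis, bars the standard error) of the 10 genes (y axis) in 6 genotype comparisons, filled where the adjusted p is 0.05 or less. Ftl1 lies to the right of 0 in both Tfam KO islet panels and to the left in both Clec16a KO panels, and Hamp was tested in liver only.

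In Tfam KO islets, the light ferritin chain and the second transferrin receptor were higher and ferroportin was lower than in controls. Of the 9 genes tested over both sexes, with sex as a term, 2 rose (Ftl1, Tfr2) and 1 fell (Slc40a1), where 20.9% of all 19752 genes tested were called. The median log2 fold change of the 9 was 0.09, against -0.01 for all genes.

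Ftl1 (chromosome 7, 45457944 to 45459884) lay at 254, 266, 256, 338 and 259.7 CPM in female controls and at 465.7, 390.4, 391 and 395 in female KO. The male controls held 276, 291 and 281 CPM and the male KO libraries 433 and 458. Each of the 6 KO libraries exceeded each of the 8 controls, by 0.61 ± 0.07 on the log2 scale (SE; edgeR adjusted p = 1.6e-05). Fth1, the heavy chain, overlapped between the groups, at 319 to 399 CPM in controls and 327 to 393 in KO (log2 fold change 0.09 ± 0.06, adjusted p = 0.37). The 3 Ftl1 and 2 Fth1 pseudogene rows held at most 0.261% and 0.133% of the parent's counts in any library.

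Slc40a1 (chromosome 1, 45908068 to 45926523) was measured at 103, 93.3, 49.9, 48.0 and 45.6 CPM in female controls, of which the first 2 stood above the rest. Female KO libraries held 43.1, 32.5, 31.8 and 31.1 CPM. Male controls lay at 45.1, 53.9 and 52.9 CPM and male KO at 25.5 and 24.8. No KO library reached the lowest control of its sex, and the fitted change was -0.99 ± 0.18 on the log2 scale (adjusted p = 0.00082). Ferroportin is also a gene of macrophages and red cell precursors. The 8 macrophage markers (1 called higher and 1 lower of 5 tested, Clec4f at 0 in all 14 libraries) summed to 71.9 to 158 CPM in controls and 89.7 to 123 in KO. The 6 markers of red cells summed to 26.9 to 92.3 CPM in female controls and 13.1 to 28.3 in female KO, with 4 of 5 tested called lower, and to 25.7 to 40.2 and 27.2 to 60.8 in males, with none called. Markers of other leukocytes (1 of 3 tested called lower) summed to 13.5 to 19.7 CPM in controls and 5.89 to 8.17 in KO, and all 7 beta cell markers were called lower in KO. The part of these cell types in the change was not tested, and in bulk RNA fewer cells of a type cannot be told apart from less RNA per cell.

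Tfr2 was scarce in islets, at 0, 0.124, 0.181, 0.2498 and 0.284 CPM in female controls and 0.188, 0.219 and 0.336 in male controls. The KO libraries lay above them, at 0.421, 0.565, 0.607 and 0.939 CPM in females and 0.600 and 0.738 in males. Its change was 1.72 ± 0.41 on the log2 scale (adjusted p = 0.0065), at a level of at most 0.597 TPM.

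Of the uptake genes, Tfrc and Slc11a2 were near the threshold. Tfrc (chromosome 16, 32608920 to 32632794) was at 76.0, 96.9, 79.3, 78.1 and 105 CPM in female controls against 47.2, 85.1, 78.9 and 70.6 in KO, and at 104, 107 and 95.3 against 56.4 and 90.0 in males. The sexes together gave a log2 fold change of -0.36 ± 0.13 (adjusted p = 0.060), and Slc11a2 gave -0.28 ± 0.10 (adjusted p = 0.051). Each of them was called under some other settings, Tfrc at an adjusted p of 0.028 and Slc11a2 at 0.028 with DESeq2's Wald test. Trf (0.45, adjusted p = 0.18), Slc39a14 (0.07, adjusted p = 0.39) and Bmp6 (0.11, adjusted p = 0.65) did not pass.

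Scaling moved this comparison. With library totals in place of TMM the median of all genes shifted to 0.20 and 6 of the 9 genes were called. Fth1 (0.30), Trf (0.65) and Slc39a14 (0.28) joined Ftl1, Tfr2 and Slc40a1. The share of all genes called with library totals is not given here. The TPM ratio of light to heavy chain, which no scaling of the library touches, was 1.997 to 2.22 over the 8 controls and 2.59 to 3.69 over the 6 KO libraries. This ratio was chosen after the values had been seen and is given with no test.

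**Figure D3:**
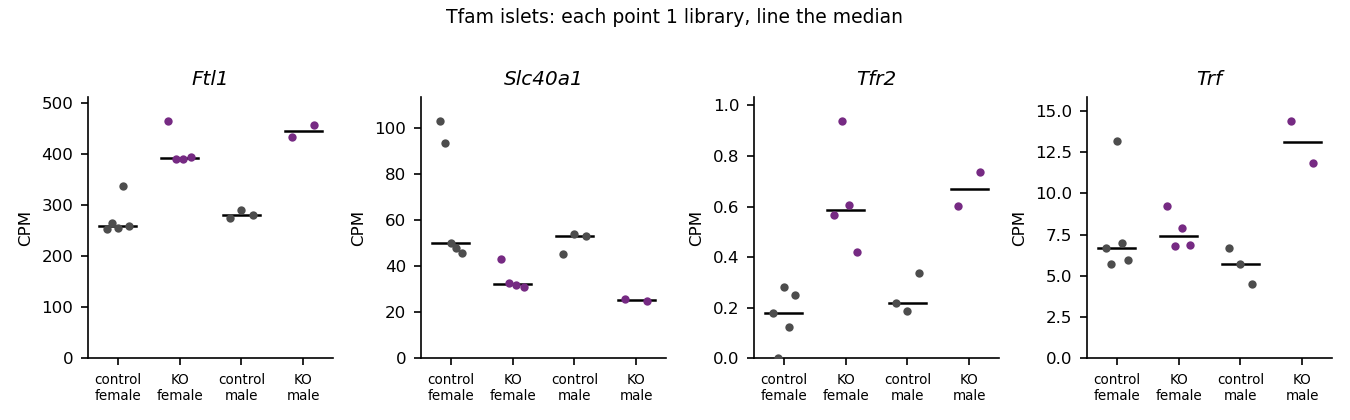
TMM-scaled CPM of Ftl1, Slc40a1, Tfr2 and Trf in Tfam islets by genotype and sex, each point 1 library and each line the median. All KO points lie above the controls for Ftl1 and Tfr2 and below the controls of the same sex for Slc40a1, while Trf separates the groups in males only.

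Within females, 3 of the 9 genes were called (10.8% of all genes): Ftl1 (0.58 ± 0.09), Slc40a1 (-0.97 ± 0.23) and Tfr2 (1.89 ± 0.53, adjusted p = 0.031). Tfr2 was called in 9 of 16 alternatives in females, with an adjusted p of up to 0.099. Within males, 2 were called (8.93% of all genes): Ftl1 (0.66 ± 0.12) and Trf. Slc40a1 (-1.01 ± 0.31, adjusted p = 0.055) and Tfr2 (1.43 ± 0.67, adjusted p = 0.21) did not pass in males. Transferrin lay at 6.69, 5.75 and 4.50 CPM in male controls and at 14.4 and 11.9 in the 2 male KO libraries (1.22 ± 0.29, adjusted p = 0.016). Fibroblast and stellate markers, 3 of 6 tested called higher in males, summed to 34.4 to 49.96 CPM in male controls and 82.97 to 84.1 in male KO. Of duct markers 2 of 5 tested, of endothelial 1 of 6 and of macrophage 1 of 5 were also called higher in males. Of beta cell markers 5 of 7 and of leukocyte markers 1 of 3 were called lower. The part of these cell types in the change of Trf was not tested. In females Trf was 5.70 to 6.98 CPM in 4 controls, 13.1 in the other and 6.78 to 9.25 in KO, with a log2 fold change of 0.00. The difference of the effect between the sexes was not called for any gene (0 of 9 here, and 0% of all 19752). For Trf it was 1.22 ± 0.37 (unadjusted p = 0.0046, adjusted p = 0.67 by edgeR's test), the only 1 of the 9 at an unadjusted p under 0.05, and DESeq2's Wald test called 0. Of all 19752 genes, 1230 had an unadjusted p under 0.05 by edgeR's test. The male result rests on 2 KO libraries: without either of them Trf was no longer called (adjusted p = 0.13 without replicate 1 and 0.061 without replicate 2).

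In islets labelled Clec16a KO the transferrin receptor and the light ferritin chain were lower on both diets. On RFD these 2 of the 9 genes fell and none rose (7.52% of all 17254 genes tested were called). On HFD 3 fell (Tfrc, Ftl1, Fth1) and 1 rose (Bmp6), where 9.57% of all genes were called.

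Tfrc stood at 76.7, 78.3, 75.7 and 78.8 CPM in RFD controls and at 28.6, 31.1, 21.2 and 30.1 in RFD KO. On HFD the controls held 66.8, 72.2, 58.1, 71.8, 69.1 and 79.1 CPM and the KO libraries 21.7, 22.9, 27.7, 77.5 and 20.05. The groups were apart on RFD, and on HFD they were apart except for KO replicate 4, which lay among the controls. The log2 fold change was -1.48 ± 0.30 on RFD (2.79-fold lower, adjusted p = 0.0073) and -1.02 ± 0.26 on HFD (2.03-fold lower, adjusted p = 0.016). Without KO HFD replicate 4 it was -1.59 on HFD (adjusted p = 1.0e-08), and the call was lost without KO HFD replicate 1, 2 or 3 and in a fit of only the compared groups, at adjusted p of 0.056 to 0.058. Within each of the 2 sequencing lanes the difference in mean log2 CPM had the same sign, at -1.56 and -1.31 on RFD and -1.65 and -0.999 on HFD. Of these, -1.31 rests on 1 KO library and -0.999 includes KO replicate 4.

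Ftl1 was at 422, 482, 430.5 and 467 CPM in RFD controls against 240.5, 273, 259 and 281 in KO. On HFD it was 497, 498, 483, 515, 516 and 485 CPM in controls against 293, 250.1, 239, 415 and 286 in KO, so that all KO libraries lay below all controls. The log2 fold change was -0.77 ± 0.13 on RFD (adjusted p = 0.0032) and -0.75 ± 0.11 on HFD (adjusted p = 0.00049), and -0.90 on HFD without KO replicate 4. The Tfam and Clec16a islets gave opposite signs for Ftl1, each against its own controls, and the difference between them was not tested.

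Fth1 also fell on HFD. It was 494, 486, 465, 436, 498 and 396 CPM in HFD controls and 398, 367, 306, 368 and 370.3 in KO, where 1 control lay inside the KO range (-0.35 ± 0.09, adjusted p = 0.013). Without KO replicate 4 the change was -0.36 (adjusted p = 0.0081). The call was lost with library totals (-0.23, adjusted p = 0.071) and without KO replicate 3 (-0.30, adjusted p = 0.051). On RFD it was 397 to 433 CPM in controls and 316 to 402 in KO (-0.23 ± 0.10, adjusted p = 0.18). The light to heavy TPM ratio was 2.601 to 3.17 over the 10 controls, 1.55 to 2.24 over the 4 RFD KO libraries and 1.76 to 2.02 over HFD KO other than replicate 4, which had 2.92.

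Bmp6 (chromosome 13, 38345107 to 38500302), which signals iron load to hepatocytes in liver, was 3.16, 2.84, 2.70, 3.54, 3.61 and 2.35 CPM in HFD controls and 7.001, 6.33, 5.11, 2.88 and 5.65 in KO. The change was 0.82 ± 0.19 (adjusted p = 0.010), and 0.98 without KO replicate 4. With the replicate number as a block it was 0.74 and not called (adjusted p = 0.0512). All KO libraries except replicate 4 were above all controls. On RFD the groups did not overlap, at 2.65 to 3.75 CPM in controls and 3.80 to 5.26 in KO, and the change of 0.58 ± 0.22 was not called (adjusted p = 0.12). Endothelial markers, of which 4 of 6 tested were called higher and 1 lower on each diet, summed to 157.5 to 207 CPM in the controls, 245 to 286 in RFD KO and 188 to 297 in HFD KO. Their part in the Bmp6 change was not tested.

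The other genes did not pass on either diet. Slc40a1 was 55.9 to 85.6 CPM in RFD controls and 28.1 to 59.7 in KO (-0.63 ± 0.27, adjusted p = 0.17), and on HFD it overlapped widely, at 62.1 to 110.3 and 37.7 to 115 CPM. Trf had log2 fold changes of 0.38 and 0.39 on RFD and HFD, Slc39a14 0.17 and 0.15, Slc11a2 -0.05 and -0.14, and Tfr2 0.09 and 0.60. Markers of red cells, which hold much Tfrc while immature, summed to 9.09 to 35.6 CPM in controls and 17.7 to 86.5 in KO, and their part in the change of Tfrc was not tested.

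**Figure D4:**
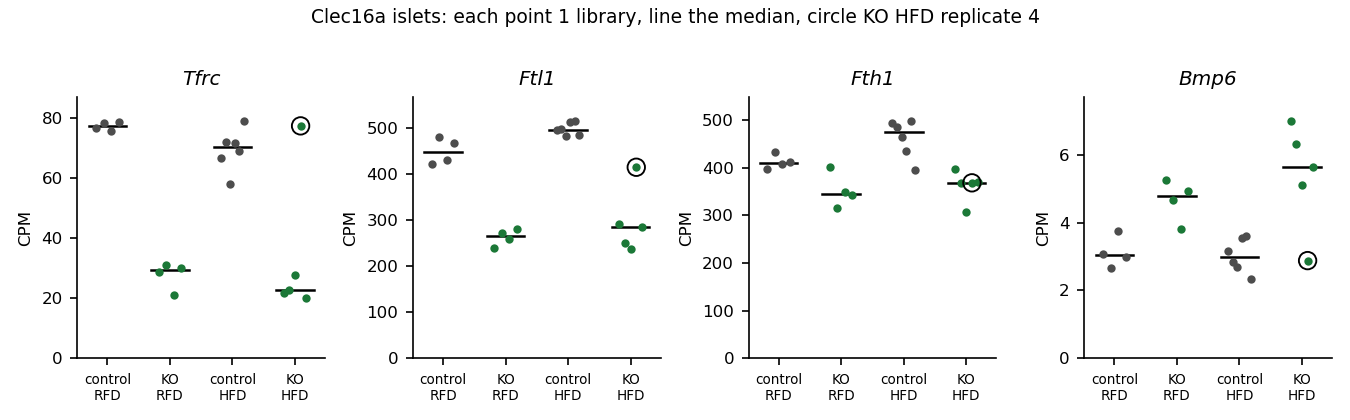
TMM-scaled CPM of Tfrc, Ftl1, Fth1 and Bmp6 in the islets labelled Clec16a control or KO on each diet, each point 1 library, each line the median, with KO HFD replicate 4 circled. That library lies with the controls for Tfrc (77.5 CPM) and Bmp6 (2.88 CPM) and between the groups for Ftl1 (415 CPM).

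Diet moved none of the 9 genes past the threshold. Between HFD and RFD control islets edgeR called 0 (0.0406% of all genes), with Tfr2 at an unadjusted p of 0.038 (-0.92 ± 0.41), and between HFD and RFD KO islets it called 0 (0.0116% of all genes), with Slc40a1 at an unadjusted p of 0.024 (0.63 ± 0.26). Without KO HFD replicate 4 the Slc40a1 difference was 0.37 (unadjusted p = 0.12), and Tfrc (-0.26) and Bmp6 (0.37) had unadjusted p of 0.044 and 0.043, with 0 of the 9 called by edgeR. DESeq2's Wald test called 0 in both. Over all 17254 genes and all libraries, edgeR gave an unadjusted p under 0.05 to 973 in controls and 946 in KO. Ftl1 in all 6 HFD controls was above all 4 RFD controls, but only just, with a lowest HFD value of 482.7 CPM and a highest RFD value of 481.6. The fitted difference of 0.15 ± 0.12 did not pass. The interaction of genotype with diet was called for 0 of the 9 and for 0% of all genes, with none of the 9 at an unadjusted p under 0.05 and 0 by the Wald test. For Tfrc the effects on the 2 diets differed by 0.46 ± 0.39 on the log2 scale (95% interval -0.30 to 1.22), an interval that includes a 2-fold difference. Without KO HFD replicate 4 the sign changed, at -0.10 ± 0.16.

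In Mfn DKO livers edgeR called 0 of the 10 genes (9.87% of all 17024 genes tested were called). An unadjusted p under 0.05 was found for 3 (Ftl1, Slc40a1 and Fth1), as for 4704 of all 17024 genes, and DESeq2's Wald test called 1 (Ftl1). The values of these 3 genes did not overlap with the controls, and the share of all genes without overlap is not given here. Fth1 was 1359, 1344, 1436, 1446, 1397 and 1534 CPM in controls and 1717, 1924, 1863 and 1830.5 in Mfn DKO (0.37 ± 0.17, adjusted p = 0.18). Ftl1 was 809, 847, 925, 893, 897 and 946 CPM against 1255, 1350.3, 1389 and 950.1 (0.48 ± 0.17, adjusted p = 0.083). Slc40a1 was 143, 143, 196, 199, 202 and 182 CPM against 250.2, 233, 221 and 244 (0.42 ± 0.15, adjusted p = 0.10). The spread in this fit is shared with the Tfam KO livers. In a fit of the 10 control and Mfn DKO livers alone, all 3 were called (adjusted p of 0.0053 for Fth1, 0.0075 for Ftl1 and 0.021 for Slc40a1), as was the fall of Tfr2 (-0.43, adjusted p = 0.025). The share of all genes called in that fit is not given here, so these calls cannot be set against it.

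In Tfam KO livers the heavy ferritin chain rose and the transferrin sensor fell, 2 of the 10 genes, in a comparison where 29.3% of all genes were called. Fth1 (chromosome 19, 9980598 to 9985098) was 2373, 3413 and 1784 CPM, each above all controls (0.83 ± 0.18, adjusted p = 0.0064), and the highest of the 3 was replicate 2. Without that library the change was 0.55 (adjusted p = 0.014). Tfr2 (chromosome 5, 137569840 to 137587481) was 454, 453, 386, 447, 455 and 411 CPM in controls, 349.5, 293, 255 and 398 in Mfn DKO and 185, 141 and 363 in Tfam KO. Its change was -0.92 ± 0.25 in Tfam KO (adjusted p = 0.018), and -0.66 without replicate 2, which was not called (adjusted p = 0.069). It was also not called without replicate 1 (-0.78, adjusted p = 0.080).

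Ftl1 was 1577, 945 and 1079 CPM in Tfam KO, with replicate 2 inside the control range (0.44 ± 0.18, adjusted p = 0.083), and without that library it was called at 0.59 (adjusted p = 0.032). The TPM ratio of light to heavy chain was 1.54 to 1.67 in the controls. It was 1.82 to 1.93 in 3 of the Mfn DKO livers and 1.34 in the fourth, and 1.72, 0.717 and 1.57 in Tfam KO, so the livers did not share 1 direction. With library totals the median of all genes shifted to 0.46, and Ftl1 (0.85) and Slc40a1 (0.60) were called with Fth1 and Tfr2. The share of all genes called with library totals is not given here. Hepatocyte markers (3 of 7 called lower) summed to 92807 to 137269 CPM in controls and to 23723 to 95153 in Tfam KO, and their part in the fall of Tfr2, a gene of hepatocytes, was not tested.

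Transferrin, the most abundant of the 10 messages in liver, was 13588 to 20304 CPM in controls, 11993 to 22385 in Mfn DKO and 9821, 6400.4 and 24049.8 in Tfam KO. It did not pass in any liver comparison with all libraries, and without Tfam KO replicate 3 it was called lower in Tfam KO than in controls (-1.001, adjusted p = 0.019). Tfrc was 20.3 to 62.9 CPM in controls, 48.4 to 103 in Mfn DKO and 30.8 to 50.7 in Tfam KO. The highest Tfrc (103 CPM) and the lowest Hamp (17.4 CPM) of all 13 livers were both in Mfn DKO replicate 4. Slc39a14 was 199.9 to 281 CPM in controls and 134 in Tfam KO replicate 2, against 294 and 326 in the other 2. Slc11a2 and Bmp6 overlapped in all 3 groups, at 24.7 to 42.6 and 2.74 to 8.75 CPM. Macrophage markers, which include the Kupffer cells that recycle iron, summed to 349.7 to 679 CPM in controls, 471 to 985 in Mfn DKO and 254 to 649.6 in Tfam KO.

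Between the Tfam KO and Mfn DKO livers edgeR called 0 of the 10 genes (0.294% of all genes), with Fth1 at an unadjusted p of 0.040 (0.46 ± 0.20), and the Wald test called 0. Of all 17024 genes, 3480 had an unadjusted p under 0.05 by edgeR's test. Without Tfam KO replicate 2 the Fth1 difference was 0.18 (unadjusted p = 0.20). Without Tfam KO replicate 3, Fth1 (0.65), Tfr2 (-0.99) and Trf (-1.12) were called. The share of all genes called in that fit is not given here, and the 0.294% belongs to the fit with all libraries. Both liver comparisons with controls use the same 6 control libraries.

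**Figure D5:**
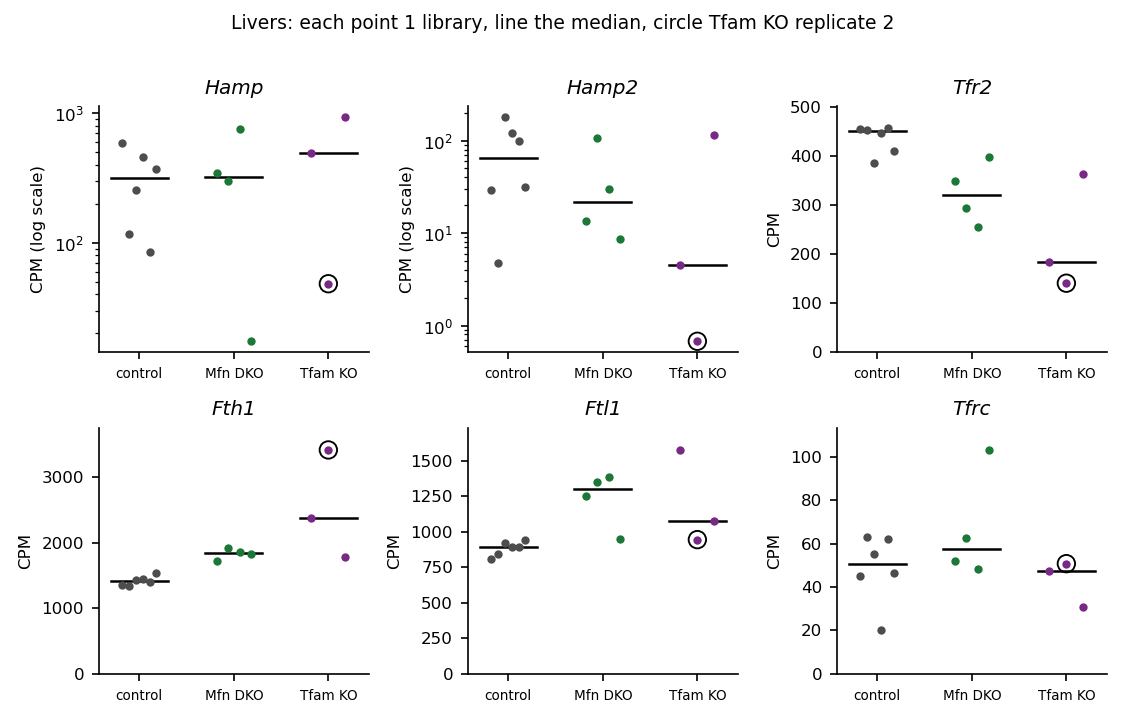
TMM-scaled CPM of Hamp and Hamp2 (log axes) and of Tfr2, Fth1, Ftl1 and Tfrc (axes from 0) in the 13 livers, each point 1 library, each line the median, with Tfam KO replicate 2 circled. Hamp spans 17.4 to 931 CPM with all groups overlapping, while every Fth1 value of both KO groups lies above the 6 controls.

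Other genes of iron metabolism, 91 in lists by role, were read from the same fits. In Tfam KO islets over both sexes 17 of 85 tested rose and 7 fell (28.2% called, against 20.9% of all genes). The largest rises among the 8 with the smallest adjusted p were in 2 genes listed under iron uptake and release. They were Cybrd1 (3.85 ± 0.33), a reductase that prepares iron for transport, and Steap1 (3.48 ± 0.13). Hmox1, the enzyme that frees iron from haem, rose by 2.54 ± 0.16, from 2.56 to 6.24 CPM in controls to 20.4 to 31.2 in KO. Hfe, a partner of both transferrin receptors, rose by 1.94 ± 0.12. Of 21 genes of mitochondrial iron use 6 rose and 1 fell (33.3% called, against 20.9%). Among those that rose were the iron-sulphur cluster genes Hspa9 (1.47 ± 0.07), Hscb (0.74 ± 0.10) and Nfu1 (0.57 ± 0.06) and the mitochondrial iron importer Slc25a28 (0.35 ± 0.05). Of 3 genes of iron sensing, Aco1, Ireb2 and Fbxl5, none was called.

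In the Clec16a KO islets 6 of 84 rose and 1 fell on RFD (8.33% called, against 7.52% of all genes), and 10 rose and 1 fell on HFD (13.1%, against 9.57%). Without KO HFD replicate 4, 14 of 83 rose and 4 fell on HFD, with 3369 of all 16860 genes called. Hfe rose on both diets (0.73 ± 0.19 and 0.90 ± 0.16). Others that rose on both were the interleukin-6 receptor chain Il6st (0.65 ± 0.13 and 0.47 ± 0.11), the Bmp target Smad6 (1.17 ± 0.35 and 1.35 ± 0.30) and the reductase Steap4 (1.18 ± 0.31 and 0.89 ± 0.27). On RFD the interleukin-6 target Socs3 (0.86 ± 0.19) and the Bmp target Id2 (0.59 ± 0.17) also rose, and Mcoln1, a lysosomal channel that passes iron, fell (-0.46 ± 0.14), as it did on HFD (-0.38 ± 0.12). On HFD Bmp2 (1.72 ± 0.39), Atoh8 (1.45 ± 0.41), Cybrd1 (1.73 ± 0.44) and Steap1 (1.52 ± 0.32) rose. Without KO HFD replicate 4 the 9 genes named here for HFD were called with the same sign, among them Hfe (1.07), Bmp2 (1.90), Atoh8 (1.69) and Steap1 (1.76). None of the 22 mitochondrial iron genes and none of the 9 haem synthesis genes was called on either diet with all libraries, and without KO HFD replicate 4 on HFD 2 mitochondrial iron genes were called higher and 1 lower. Diet called 0 of these 84 genes in controls and 0 in KO, with 4 and 5 at an unadjusted p under 0.05. Of all 17254 genes, 973 and 946 were under it.

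Of 9 haem synthesis enzymes in the livers, 3 were called lower in Mfn DKO (4.64% of all genes were called lower) and 6 in Tfam KO (11.3% of all genes), or 4 without Tfam KO replicate 2, and none was called higher. Uros (-0.48 ± 0.09 and -0.66 ± 0.10), Urod (-0.58 ± 0.11 and -0.79 ± 0.12) and Ppox (-0.51 ± 0.12 and -0.67 ± 0.13) were called in both groups. Fech, which inserts iron into haem, fell in Tfam KO (-0.70 ± 0.15). Hmox1 rose in both groups (0.96 ± 0.20 and 1.43 ± 0.22), from 18.2 to 28.3 CPM in controls to 33.3 to 56.8 in Mfn DKO and 48.6 to 92.1 in Tfam KO, as did Hspa9 (1.18 ± 0.20 and 1.39 ± 0.22), and Flvcr2 rose in Tfam KO (1.05 ± 0.19). Blvrb, which reduces biliverdin, and Slc25a28 fell in Mfn DKO (-0.71 ± 0.11 and -0.42 ± 0.11), and Steap1 rose in Tfam KO (4.15 ± 0.73). Without Tfam KO replicate 2, Uros (-0.65), Urod (-0.64), Ppox (-0.54), Fech (-0.59), Hmox1 (1.06), Flvcr2 (1.11), Hspa9 (1.36) and Steap1 (3.10) were still called. In all, 3 of 87 rose and 7 fell in Mfn DKO (11.5% called, against 9.87% of all genes), and 13 rose and 13 fell in Tfam KO (29.9%, against 29.3%), or 8 and 6 without Tfam KO replicate 2, where 14.5% of all genes were called. Of 13 genes of the Bmp input to hepcidin 2 rose and 2 fell in Tfam KO (30.8% called, against 29.3% of all genes), or 1 and 1 without replicate 2. Of 8 Bmp targets 2 rose (25.0%, against 29.3%), or 1 without replicate 2. Of the called genes of both lists 3 are named, chosen after their values were seen. The 2 inputs that rose and the other input that fell are not named, so the 3 do not stand for the lists. The suppressor Tmprss6 fell (-0.97 ± 0.25) and the targets Id1 (1.63 ± 0.36) and Atoh8 (1.05 ± 0.30) rose. Without replicate 2 they were -0.66, 1.55 and 0.96, and Atoh8 was no longer called (adjusted p = 0.078).

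The genes most like Hamp across the 13 livers, by Spearman's rho of log2 CPM among 9917 genes, were Gm4673 (0.868), Wee1 (0.857), Akr1e1 (0.841), Sclt1 (0.797) and Hint3 (0.780). For Tfrc across the 19 Clec16a islets they were Syt14 (0.939), Tollip (0.926), Ccng2 (0.916), Tm7sf3 (0.916) and Txndc16 (0.914), and across the 14 Tfam islets Camkk1 (0.890), Selenoo (0.877), Sec16b (0.868), Dnajc5 (0.868) and Eif2ak1 (0.864). The libraries share group, depth and composition, so these values describe likeness over these libraries only.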

How the data were processed

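RNA-seq libraries of cultured mouse islets and frozen liver gave for each gene a raw count, a TPM and a CPM value, per the file headers. Per the submitters' processing notes, STAR 2.6.1b, RSEM 1.3.1, featureCounts, DESeq2 and GRCm38 were used; which tool made the counts, and the annotation, are not given in the sources used here. The authors' deposited counts are whole numbers and were tested as they stood. The authors' CPM equal the count over the library total and were not used further. The authors' deposited TPM imply 1 length per gene in all libraries and serve for levels between genes and for ratios.

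The labels set the groups. Fits were made within an experiment, in R 4.3.3 with edgeR 4.0.16: TMM normalization, filterByExpr, quasi-likelihood F-test, Benjamini-Hochberg adjustment over all genes tested, 1 mean per group (sex as a term for both sexes). The fit was tested on simulated data. Printed CPM use TMM-scaled totals; likeness used a prior count of 2 and genes of at least 5 CPM. Depth is the total count; a count of 0 allows 3, counting error only. No molecular identifiers are stated. Alternatives included DESeq2 1.42.0, other scalings, other filters, covariates and leaving out each library; library totals, and list counts and gene values without 2 libraries that stood apart, were added after seeing the data. Replicate numbers did not pair libraries. The lane was read from names of the deposited data.

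The 10 genes were given; they and all lists were chosen with earlier results of these data known. Named are all 10, Hamp2, the targeted genes, called iron genes, and the 5 genes most like Hamp or Tfrc. The rule for called iron genes was at most 8 per comparison, with the smallest adjusted p. More than 8 are named for Clec16a KO on HFD and for Tfam KO livers. In the latter Tmprss6, Id1 and Atoh8 were chosen after their values were seen. Sequences came from GENCODE M21; promoter sequences are not reported here.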

Additional observations from a re-analysis of the deposited data

Results flagged for a closer look

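Of 74 groups of 4 to 6 libraries examined, 1 library lay apart from the rest of its group in 6, by the size of its gap to the nearest library; chance alone gives this in about 1 in 20 groups. Tfrc was 77.5 CPM in Clec16a KO HFD replicate 4, against 20.05 to 27.7 in the other 4. In Tfam control female replicate 3, Trf was 13.1 CPM, against 5.70 to 6.98. Slc40a1 was 43.1 CPM in Tfam KO female replicate 1, against 31.1 to 32.5, and Ftl1 in the same library was 465.7 CPM, against 390.4 to 395. Tfam control female replicate 4 held 399 CPM of Fth1, against 319 to 337, and 338 CPM of Ftl1, against 254 to 266.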

How the results depend on the processing

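Over 12 comparisons, 111 pairs of gene and comparison were tested. Of the 16 called, 8 were called under all alternatives run and 0 changed sign; of the 95 not called, 20 were called under some alternative, 39 changed sign, and 75 were called in no fit. In Tfam KO islets over both sexes the count of called genes, 3, was 6 with library totals, 5 without the filter on low counts, 5 with the Wald test and 3 to 5 without 1 library at a time, with 5 without control female replicate 1, control female replicate 4 or KO female replicate 2. In females 3 became 5 with library totals and 2 to 3 without 1 library. In males 2 became 4 with the Wald test and 0 to 2 without 1 library (1 without control replicate 2 or KO replicate 1, 0 without KO replicate 2). For Clec16a KO on HFD, 4 became 2 to 4, with 2 without KO HFD replicate 3, and on RFD it was 2 throughout. For Mfn DKO livers, 0 became 2 with library totals, 1 with the macrophage score as a covariate, 4 in a fit of only the compared groups and 1 with the Wald test. For Tfam KO livers, 2 became 4 with library totals, 1 to 3 without 1 library (1 without Tfam KO replicate 1), and 0 with the replicate block. Against Mfn DKO, 0 became 0 to 3, with 3 without Tfam KO replicate 3. Shares of all genes called under the alternatives are not given beside these counts. The log2 fold change of Trf in Tfam KO livers, -0.26, was 0.071 with library totals and -1.001 to 0.079 without 1 library at a time (0.079 without Tfam KO replicate 2, -1.001 without replicate 3), and against Mfn DKO, -0.39, it was 0.30 with the macrophage score as a covariate. The cause was not tested. Replicate numbers are shared between groups, but same-numbered libraries did not deviate together (median correlation 0.0653 for Tfam, -0.0163 for Clec16a, 0.0873 for liver); with the number as a block the counts were 4, 3 and 3 in the Tfam islets (both sexes, females, males), 2 and 3 for Clec16a on RFD and HFD and 0 in each liver comparison. Hamp had at most 4 counts in any islet library and was not tested there.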

Other observations

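The labels give no sex for the livers. In 7 livers Xist, the RNA of the inactive X chromosome, lay at 380.3 to 788 CPM and in the other 6 at 0.0847 to 0.705. Hamp2 was 99.9, 121 and 179 CPM in the 3 control livers with Xist, and 4.75, 29.5 and 31.1 in the 3 without. The ratio of Hamp to Hamp2 in TPM was 1.21 to 5.39 in the first 3 and 16.97 to 35.3 in the others. Hamp itself overlapped, at 84.7 to 459 CPM and 118 to 587. Among the livers with Xist, Hamp2 was 107 and 8.72 CPM in Mfn DKO and 115 and 0.675 in Tfam KO, where the low values are those of Mfn DKO replicate 4 and Tfam KO replicate 2, the livers with the least Hamp. These livers were sorted by their own RNA and are no groups of the study, so no test was made.

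Hamp2 was also present in islets at a low level, at 0.635 to 2.85 CPM in the Clec16a control islets and 0.0263 to 0.303 in the Tfam control islets, while Hamp had at most 4 counts in any islet library. The experiments were scaled apart.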
